A study of Mus musculus with 14 samples.

Results

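The regions described here were the H3K27ac peaks of at least 1 kb that were called at day 4 in wild-type (WT) cells and touched no peak called in cells carrying CTCF-K20R. They were selected on the measured peak calls: a WT peak was taken if it was 1000 bp or wider, lay on one of the 19 autosomes outside 40 to 70 Mb of chromosome 14 and a 50 Mb stretch of chromosome 8 from 65 Mb on, and shared no base with any K20R peak. This rule gave 2191 regions, called WT-only regions below, of 38982 WT peaks in all. Of the 17376 WT peaks of 1 kb or more, 16238 lay on the chromosomes used, and WT-only regions were 13.5% of these. The other 14047 overlapped a K20R peak and are called shared peaks. The same rule with the genotypes exchanged gave 3653 K20R-only peaks among 18928 K20R peaks of 1 kb or more, out of 45318 K20R peaks of any width.

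Mouse embryonic stem cells of the line E14Tg2A, grown on mitomycin C-inactivated mouse embryo fibroblasts with leukemia inhibitory factor and the 2i inhibitors, carried either wild-type CTCF or CTCF in which CRISPR/Cas9 had replaced lysine 20 by arginine (K20R). Day 4 samples were embryoid bodies, the cell aggregates formed in hanging drops in serum medium without leukemia inhibitory factor, and day 0 samples were the stem cells themselves. H3K27ac was measured in 1 library per genotype at day 4, and CTCF in 2 libraries per genotype at day 0 and at day 4. The number of clones behind each genotype was not stated, so genotype and clone cannot be told apart, and with 1 H3K27ac library per genotype the H3K27ac values below are a description without a test. The 4 input samples were not analysed here.

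Acetylation of lysine 27 on histone H3 marks active promoters and enhancers. CTCF is the zinc finger protein that binds a long DNA motif and, together with cohesin, anchors chromatin loops that can bring enhancers and promoters together. When stem cells leave pluripotency in embryoid bodies, some enter a state like the primitive streak of the gastrulating embryo, in which the T-box factors brachyury (T) and Eomes and the ligands Wnt3 and Nodal set up mesoderm and endoderm.

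The WT-only regions held CTCF sites that were called in both WT libraries and absent from both K20R lists ("lost"), and sites that stayed in all 4 lists ("kept"). The following sequences of the mm10 (GRCm38) build show the CTCF motif, in capitals, at the 4 lost sites with the highest WT rank among those that held a motif match outside exons, and at 2 of the strongest kept sites. Each is printed 5′ to 3′ on the strand of the motif with 20 bases on either side, and is named after the gene with the nearest start site.
Samd10 region, lost site, chr2:181597699-181597757, plus strand: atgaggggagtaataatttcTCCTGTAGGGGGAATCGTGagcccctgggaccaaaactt
Mtdh region, lost site, chr15:34097181-34097239, plus strand: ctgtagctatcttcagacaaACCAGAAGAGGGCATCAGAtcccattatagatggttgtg
Exoc6b region, lost site, chr6:85017172-85017230, minus strand: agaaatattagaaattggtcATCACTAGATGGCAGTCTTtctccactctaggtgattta
Nlrc4 region, lost site, chr17:74463010-74463068, plus strand: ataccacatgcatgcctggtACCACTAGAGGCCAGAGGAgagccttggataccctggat
Tfdp2 region, kept site, chr9:96167307-96167365, minus strand: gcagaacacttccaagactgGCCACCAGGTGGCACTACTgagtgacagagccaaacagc
Cpne8 region, kept site, chr15:90680130-90680188, plus strand: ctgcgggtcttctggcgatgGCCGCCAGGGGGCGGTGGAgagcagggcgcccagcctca

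WT-only regions near streak genes overlapped further CTCF sites and held further motifs. The first 2 sequences below are from the kept CTCF sites that had a motif match outside exons, in the same format. The T2 and T sequence lies just outside the WT-only region at chr17:8388688-8390114, which its CTCF site overlaps in part. The other 3 carry, in capitals, the T-box motif AGGTGTGA, the letters that brachyury-type factors bind, with 30 bases on either side. The search covered the full width of WT-only regions within 50 kb of a start site of a gene from the 8 lists used below. Most of these regions had no match, among them those at Eomes, Wnt3 and Cer1 and the other T regions in this range.
T2 and T region, kept CTCF site, chr17:8388610-8388668, plus strand: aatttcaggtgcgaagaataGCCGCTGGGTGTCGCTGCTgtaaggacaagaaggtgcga
Snai1 region, kept CTCF site, chr2:167537944-167538002, plus strand: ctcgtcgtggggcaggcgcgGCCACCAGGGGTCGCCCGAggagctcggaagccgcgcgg
T region, T-box match, chr17:8396936-8397003, plus strand: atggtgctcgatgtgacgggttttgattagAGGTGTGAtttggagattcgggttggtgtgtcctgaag
Snai1 region, T-box match, chr2:167537698-167537765, minus strand: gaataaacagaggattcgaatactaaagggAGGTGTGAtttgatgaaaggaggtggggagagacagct
Etv2 region, T-box match, chr7:30655816-30655883, minus strand: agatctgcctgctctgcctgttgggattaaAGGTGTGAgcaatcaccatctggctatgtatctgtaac

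WT-only regions were narrow and weak beside shared peaks, with medians near those of K20R-only peaks. Their width had a median of 1342 bp (range 1000 to 5870 bp), against 2015 bp in shared peaks and 1351 bp in K20R-only peaks. The deposited fold enrichment, which is the signal of a peak over its local background, had a median of 3.08 (range 2.56 to 7.26) in WT-only regions, 4.61 in shared peaks and 3.12 in K20R-only peaks. A −log10 q-value of 5 or more was reached by 77 WT-only regions (3.51%), by 53.6% of shared peaks and by 74 K20R-only peaks (2.03%). The median −log10 q-value of the WT-only regions was 1.70, near the lowest value called, 1.04. At the borders of the rule, the 217 WT-only peaks less than 50 bp above the width limit had a median fold enrichment of 3.06, and the 306 up to 50 bp under it, left out by the rule, had 3.01. Likewise, 105 WT-only regions had a K20R peak within 200 bp (median fold enrichment 3.07), and 254 shared peaks overlapped a K20R peak by 200 bp or less (3.05).

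**Figure D1:**
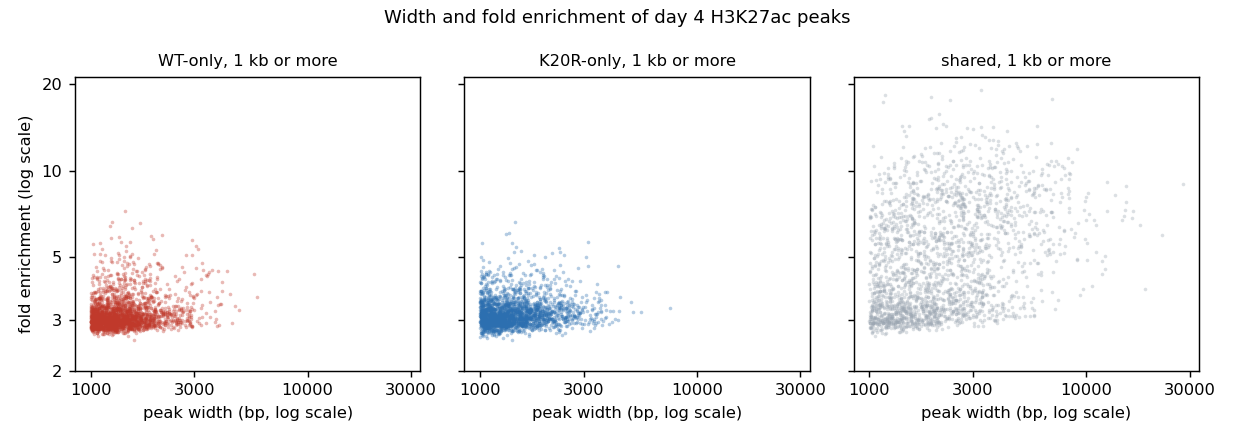
Each point is 1 day 4 H3K27ac peak of 1 kb or more, placed by its width (horizontal, bp, log scale) and its deposited fold enrichment (vertical, log scale), for all 2191 WT-only regions and a random draw of 2191 from each of the K20R-only and shared peaks. WT-only and K20R-only peaks fill the same corner near a fold enrichment of 3, while shared peaks extend to greater widths and enrichments.

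Most WT-only regions lay close to acetylated chromatin of K20R cells. The gap to the nearest K20R peak had a median of 3168 bp, with 468 regions (21.4%) within 1 kb of one and 1341 (61.2%) within 5 kb. K20R-only peaks were likewise close to WT peaks, with a median gap of 4162 bp. A smaller set of 233 WT-only regions (10.6%) lay more than 50 kb from any K20R peak. By chromosome, WT-only regions made up 32.1% of all unshared peaks of 1 kb or more on chromosome 5 and 43.9% on chromosome 3, the ends of the range, against 37.5% over all chromosomes.

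By position, WT-only regions were mainly intronic. Introns held 1400 of them (63.9%, 95% Wilson interval 61.9 to 65.9%), intergenic sequence 442 (20.2%), promoters, meaning within 3 kb of the start site of a protein-coding gene, 243 (11.1%, 9.84 to 12.5%), and exons 106. Shared peaks were in promoters in 50.4% of cases and in introns in 29.9%. K20R-only peaks, with 10.1% in promoters and 60.9% in introns, were placed much as the WT-only regions were. Distant regions were the exception: 254 WT-only regions (11.6%, 10.3 to 13.0%) lay over 100 kb from a start site, against 5.78% (5.06 to 6.58%) of K20R-only peaks and 6.32% of shared peaks. These intervals cover counting error within the peak lists only, since no list was replicated.

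The central 1000 bp of WT-only regions had a median GC content of 45.5%, K20R-only peaks 45.6% and shared peaks 49.8%. A CpG ratio above 0.6, the observed over the expected number of CpG dinucleotides and a mark of CpG islands, was reached by 2.24% of WT-only regions, 1.04% of K20R-only peaks and 28.8% of shared peaks. Bases masked as repeats made up a median of 20.2% of a WT-only region, 22.7% of a K20R-only peak and 17.1% of a shared peak.

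WT-only regions marked the start sites of several primitive streak genes. The gene lists were chosen with earlier results of these data known, so their shares are a description and no independent support. Of 24 primitive streak and mesoderm genes on the chromosomes used, 4 had a WT-only region within 3 kb of a start site (Eomes, Wnt3, Cer1 and Snai1), which was 16.7% of the list against 1.31% of all 19821 protein-coding genes. K20R-only peaks of 1 kb or more lay near 0 of the 24, against 1.94% of all genes. Of 29 genes of developmental signals, 4 had a WT-only region (Wnt11, Chrd, Etv5 and Smad7) and 1 a K20R-only peak (Fgf15). In the cardiac (15 genes), pluripotency (17), neural (13), endoderm (9), blood and endothelium (9) and feeder fibroblast (13) lists, 0 genes had a WT-only region within 3 kb. All 15 cardiac, 10 neural and 7 endoderm genes had no H3K27ac peak of any width in this range in either genotype. The cardiac list could thus show no difference between the genotypes. Over all lists together, 8 of 129 genes had a WT-only region and 2 had a K20R-only peak. Only the Cer1 and Wnt11 regions had a −log10 q-value of 5 or more.

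Peaks of any width were counted in the same range of 3 kb. WT had an H3K27ac peak and K20R none at 10 of the 24 streak genes (Cer1, Eomes, Fgf8, Gsc, Lhx1, Pdgfra, Snai1, Sp5, T and Wnt3) and at 2.46% of all protein-coding genes. At Fgf8 the WT peak, 18583 bp wide, overlapped a K20R peak that lay beyond 3 kb of the start site, so it was a shared peak. The WT peaks at the other 9 genes overlapped no K20R peak, but most were weak calls of 1 library. Their −log10 q-value was 1.18 at Gsc (265 bp wide), 1.74 at Sp5 (512 bp) and 1.76 at Lhx1 (516 bp). It was 1.89 at Pdgfra (215 bp) and 2.65 at T (471 bp). Of the 9 genes, only Cer1 had a peak with a value of 5 or more (5.86). A K20R peak without a WT peak was found at 0 of the 24 and at 3.97% of all protein-coding genes. Nodal, Fgf5 and Tbx6 had peaks in both genotypes. Of the 17 pluripotency genes, 10 were marked in both genotypes (among them Pou5f1, Nanog, Sox2 and Zfp42), 0 in WT alone and 3 in K20R alone (Dppa3, Fgf4 and Klf4). The remaining 11 streak genes, among them the markers Mesp1 and Mixl1, had no peak within 3 kb in either genotype. Of the 13 feeder fibroblast genes, 4 had a peak in WT and 2 in K20R: Col5a2, Lum and Pdgfrb in WT alone, Loxl1 in K20R alone and Thy1 in both, while Col1a1, Col1a2 and Col3a1 had none. The part of feeder cells in the WT-only regions was not tested. In these mixed aggregates, fewer cells in a state and less acetylation per cell cannot be told apart.

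**Figure D2:**
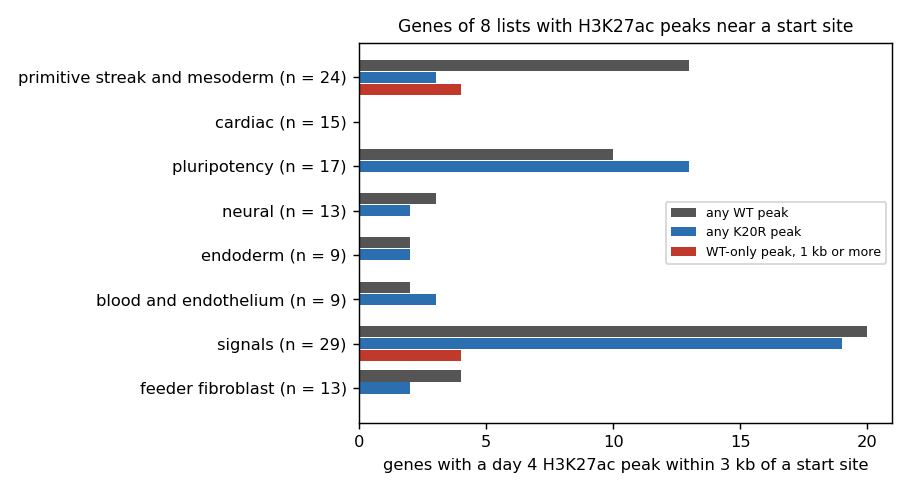
Bars give the number of genes (horizontal) of each of 8 lists (vertical, with the number of genes on the chromosomes used) with a day 4 H3K27ac call no farther than 3 kb from a start site, in WT, in K20R, or as a WT-only region of 1 kb or more. In the primitive streak and mesoderm list 13 genes were marked in WT and 3 in K20R, and in the pluripotency list 10 and 13.

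Eomes, the T-box factor that acts at the start of gastrulation, carried a WT-only region of 1120 bp over its start site (chr9:118478264-118479383, fold enrichment 3.53). Within 60 kb of the start site the WT list held 6 H3K27ac peaks and the K20R list 3, the nearest K20R peak being 9268 bp from the region. The CTCF site in this region was kept, but it merged separate WT peaks. In the first WT list they lay at −0.023 to 0.484 kb (fold enrichment 12.2) and 0.631 to 1.169 kb (15.4) from the start site. A wide peak of the second K20R list, at 0.177 to 1.159 kb, bridged them. The first K20R list had a call only at 0.183 to 0.465 kb (4.38). By its highest peak in each list, the site stood at the percentiles 59.6 and 54.8 among all peaks of the WT lists. In the shorter K20R lists it stood at 2.74 and 59.8. The value of 2.74 thus came from another peak than the WT values.

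T, which encodes brachyury, had 7 H3K27ac peaks within 60 kb of its start site in WT and 0 in K20R. The fold enrichments in WT ran from 3.04 to 4.94. The nearest K20R peak was upstream and just outside this window, 15904 bp beyond the region at chr17:8388688-8390114. The outermost WT-only region, at −59.081 to −57.424 kb from the start site, lay between them and so was closer to that K20R peak. Of the 7 WT peaks, 4 were WT-only regions of 1 kb or more, all upstream of the gene. Of these regions, 3 were within 50 kb (chr17:8388688-8390114, chr17:8395248-8397877 and chr17:8413824-8414888, with fold enrichments of 4.56, 3.21 and 3.04). The peak nearest the start site, chr17:8433490-8433960, was 471 bp wide and so fell outside the rule. The 4 regions overlapped 3 CTCF sites. The lost site in the outermost region had percentiles of 16.5 and 19 in the WT lists. The 2 kept sites both overlapped the region at chr17:8388688-8390114. The first, chr17:8388421-8389238, did so in part, with its summit and motif match outside the region. Its percentiles were 83.6 and 84.6 in WT against 45.9 and 67.5 in K20R. Those of the second were 46.3 and 44.4 against 14.2 and 12. Percentiles also shift with the number of weak peaks in a list, and the K20R lists were shorter. At the first of these sites the fold enrichment was 26.5 and 27 in WT and 13.4 and 31.9 in K20R, so the genotypes overlapped on that scale. The T-box sequence of T printed above lies in the region of 2630 bp.

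Wnt3, the ligand that starts streak formation, carried the widest WT-only region at a listed gene, 3956 bp across its start site (chr11:103771537-103775492, fold enrichment 3.43). No K20R peak lay within 60 kb, against 3 WT peaks, and the nearest was 64896 bp from the region. Its CTCF site was lost, from the percentiles 12.6 and 12.9 in the WT lists, and held no motif match. Cer1, a secreted inhibitor of Nodal, BMP and Wnt signals, carried a region of 2134 bp over its start site (chr4:82884490-82886623, fold enrichment 4.56) and a second one 35177 bp away (chr4:82848744-82849971, 3.41). Within 60 kb WT had 4 H3K27ac peaks and K20R had 0, the nearest K20R peak being 347083 bp from the region at the start site. Neither Cer1 region overlapped a CTCF peak.

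Snai1, a repressor of E-cadherin in cells that leave the epiblast, had a region of 1177 bp (chr2:167537286-167538462, fold enrichment 3.56) in an active neighbourhood with 12 WT and 9 K20R peaks within 60 kb. Its CTCF site was kept, at the percentiles 83.7 and 89.3 in WT and 82.1 and 93.1 in K20R, which overlap. Among the signals, the region in the gene of the ligand Wnt11 (chr7:98840319-98841776) had the highest fold enrichment at a listed gene, 5.24. The region at the BMP antagonist Chrd (chr16:20729942-20730952, 4.23) covered the start site of the neighbouring gene Thpo, which encodes thrombopoietin. The regions at Etv5, an ETS factor downstream of FGF (chr16:22435122-22436525, 3.00), and at the inhibitory SMAD gene Smad7 (chr18:75371476-75373294, 3.15) had K20R peaks 699 and 1499 bp away.

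**Figure D3:**
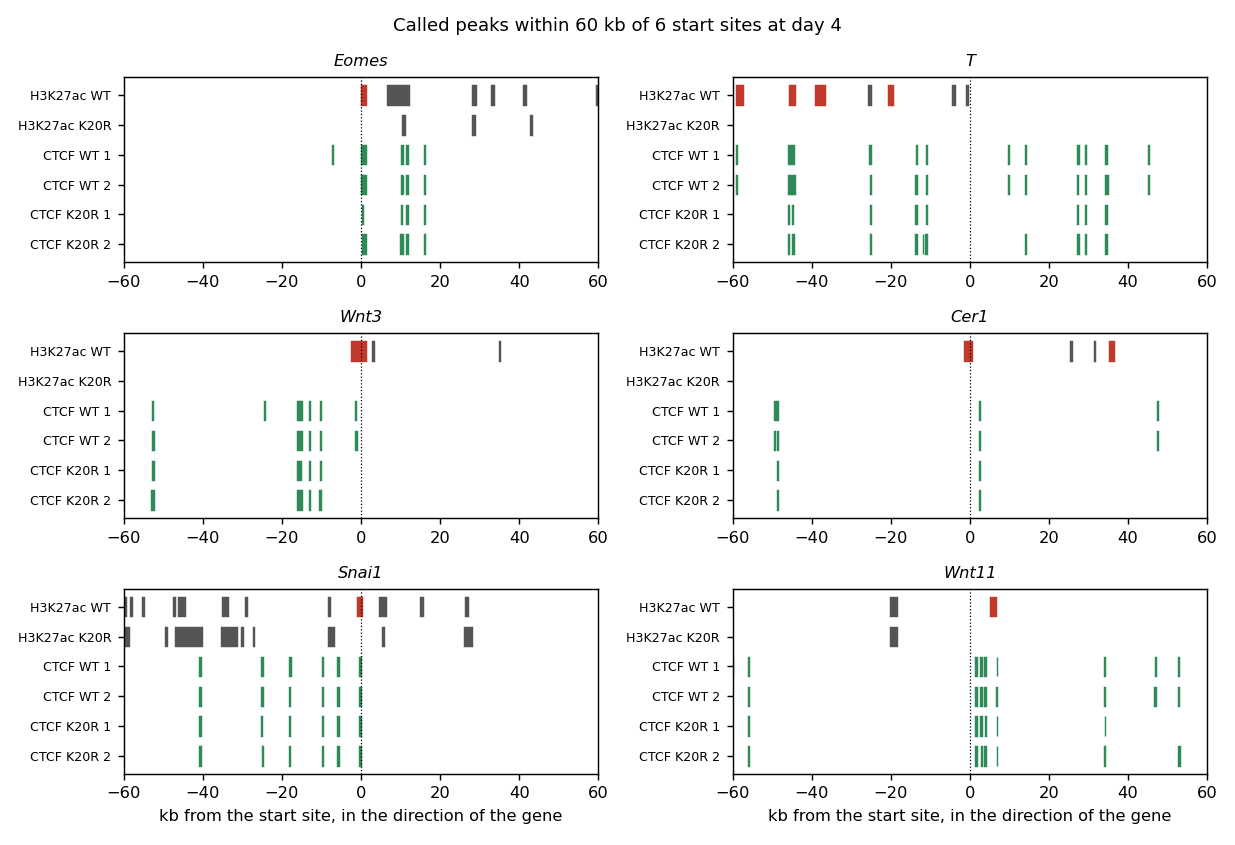
Each panel shows, along the distance in kb from a start site in the direction of the gene, the peaks called at day 4 in the WT and K20R H3K27ac lists and in the 4 CTCF lists. WT-only regions of 1 kb or more are red, other H3K27ac peaks grey and CTCF peaks green. The K20R H3K27ac row is empty at T, Wnt3 and Cer1, while CTCF peaks remain in every CTCF row.

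Within 50 kb of a start site the lists came closer to the rest of the genome. A WT-only region lay in this range for 7 of the 24 streak genes (29.2%), 8 of the 29 signal genes and 21 of all 129 listed genes (16.3%), against 17.0% of all protein-coding genes. The 7 streak genes were the 4 above with T, Fgf8 and Mixl1, and the region of Mixl1 lay 119 bp from a K20R peak. K20R-only peaks lay within 50 kb of 24 of the 129 listed genes, against 26.0% of all genes, with 2 in the streak, 5 in the pluripotency and 11 in the signal list.

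The regions had 1781 nearest genes, of which 1475 were nearest to a single region and 21 to at least 4. Tspan5, a tetraspanin gene, led with 7 regions over 216 kb (fold enrichments 2.80 to 4.61), beside 2 shared and 0 K20R-only peaks. Adgrl2, which encodes an adhesion receptor of the latrophilin family, had 6 regions over 79.4 kb, beside 8 shared peaks and 1 K20R-only peak. Cplane1, Rassf3, Sema6a and Ski had 5 each. Ski encodes a repressor of TGF-beta signals and Sema6a a semaphorin. Both had 0 K20R-only peaks, as did Rassf3 and most of the 21 genes. These genes were chosen by their number of WT-only regions. Genes nearest to many K20R-only peaks were not counted, so this does not set them apart. The other 15 genes, with 4 regions each, were Dnajc5, Dst, Magi1, Opa1, Pex14, Ptpn14, Rere, Shb, Slc37a3, Slit3, Trak1, Trim33, Trio, Vav2 and Vmn2r2. Of these, Dst was the one with as many K20R-only peaks (4) as WT-only regions.

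The widest WT-only region, 5870 bp (chr18:35651636-35657505, fold enrichment 3.61), covered the promoter of Prob1. It was followed by regions nearest to Adamts9 (5646 bp), which encodes a secreted metalloprotease, Aaas (4839 bp), a nuclear pore component, Adgrl2 (4634 bp) and the polymerase gene Rev1 (4459 bp). The next were nearest to Fstl4, Abhd2, Slc22a30, Cxxc5 and Rftn2. The Adamts9 region lay 353261 bp from the start site.

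The regions with the highest fold enrichment were of another kind. They were nearest to Chia1 (7.26), the olfactory receptor genes Olfr893 (6.60) and Olfr891 (6.41), Dixdc1 (6.54), Ndufaf4, Gm9767, Fam174a, Atp6v1h, 1700009N14Rik and Csmd3. In 9 of the 10, at least 64.0% of the bases were masked as repeats, the exception being Dixdc1 with 27.7%. Of the 77 regions with a −log10 q-value of 5 or more, 38 were intergenic, 27 lay over 50 kb from any K20R peak and 23.4% were mostly masked (15.3 to 34.0%), against 9.49% of all WT-only regions. Whether reads that map to several repeat copies contributed was not tested.

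Motif letters were searched on both strands of the central 1000 bp of each peak. The T-box motif AGGTGTGA was present in 138 WT-only regions (6.30%, 5.36 to 7.39%), in 4.35% of K20R-only peaks (3.74 to 5.06%) and in 3.89% of shared peaks (3.59 to 4.23%). The intervals of WT-only and K20R-only peaks did not overlap, at nearly the same GC content. Outside promoters the shares were 6.62% (5.60 to 7.81%), 4.51% (3.85 to 5.27%) and 4.65% (4.18 to 5.17%). In unshared peaks under 1 kb, which the rule left out, the same motif was in 5.39% of WT-only peaks (4.99 to 5.82%) and 4.82% of K20R-only peaks (4.50 to 5.16%), whose intervals overlapped. The shorter form AGGTGTG, added after these shares were seen, gave 24.4% (22.7 to 26.3%) and 25.6% (24.2 to 27%), whose intervals overlapped. The octamer ATGCAAAT was in 6.30% of WT-only regions (5.36 to 7.39%) and 4.87% of K20R-only peaks (4.22 to 5.62%), and the TCF/LEF letters CTTTGAT in 16.4% and 14.5%. The GATA letters AGATAAG were in 12.4% and 12%, and the SMAD letters GTCTAGAC in 1.14% and 1.10%.

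CTCF was seldom called in these regions. A CTCF peak overlapped 7.26% and 7.21% of them in the 2 WT libraries of day 4 (159 and 158 of 2191) and 3.93% and 4.61% in the 2 K20R libraries (86 and 101). The means were 7.23 ± 0.0323% (SD, n = 2) and 4.27 ± 0.484%, a difference of −2.97 percentage points, with both K20R libraries below both WT libraries. A two-sided exact permutation test gave p = 0.333, the smallest p that 2 libraries against 2 allow, and the same holds for every p of 0.333 below. The K20R lists were also shorter, with 41360 and 47463 peaks against 61088 and 61436 in WT. With all 4 lists reduced to one length the difference was −0.73 points.

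Shared peaks overlapped a CTCF peak more often, in 26.4% and 26.1% of cases in WT and 17.4% and 24.0% in K20R. The log2 ratio of the WT-only share to the shared-peak share in the same library was −1.86 in each WT library and −2.15 and −2.38 in the K20R libraries, a difference of −0.40 (exact permutation p = 0.333), and of −0.28 with lists of one length. Against K20R-only peaks, of which 11.8% and 11.9% overlapped a CTCF peak in WT and 8.62% and 10.3% in K20R, the log2 ratio differed by −0.43 (exact permutation p = 0.333). Against the 4875 shared peaks under the 95th percentiles of the WT-only regions in fold enrichment and width, whose medians of 3.25 and 1476 bp were still above those of the WT-only regions, it differed by −0.29 (exact permutation p = 0.333). The log2 ratio of K20R-only to shared peaks differed by 0.03 (exact permutation p = 1). In each of the 3 comparisons of WT-only regions, every K20R library lay below every WT library.

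At day 0, before differentiation, a CTCF peak overlapped 9.08% and 5.52% of the WT-only regions in WT stem cells and 5.39% and 5.20% in K20R (exact permutation p = 0.333), and the means differed by less than the 2 WT libraries did. The difference at day 4 minus that at day 0 was −0.96 points, with an exact permutation p of 1 over 36 arrangements of the libraries within days, which allow no p below 0.0556.

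**Figure D4:**
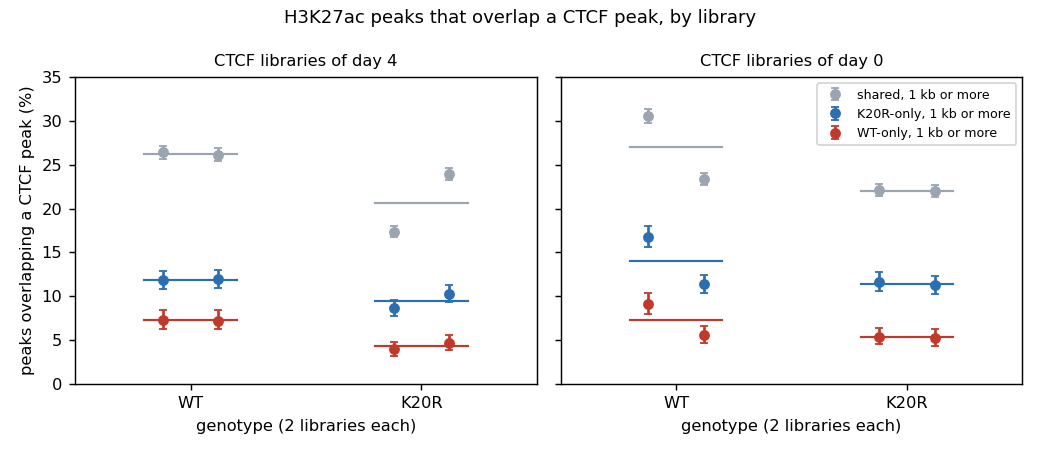
Points give the percentage of WT-only regions, K20R-only peaks and shared peaks of 1 kb or more (vertical) that overlapped a CTCF peak in each library of WT and K20R (horizontal), for day 4 (left) and day 0 (right), with 95% Wilson intervals and a line at the mean of 2 libraries. At day 4 the WT-only regions were at 7.26% and 7.21% in WT and at 3.93% and 4.61% in K20R.

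Merging the CTCF peaks of the 4 day 4 lists gave 200 sites in 187 of the WT-only regions, and 2004 regions (91.5%) held none. Of 148 sites called in both WT libraries, 37 were lost (25%, 18.7 to 32.5%), 93 were kept and 18 were called in 1 K20R library. The lost share was 18.8% of the 51732 such sites in the genome, 15.3% in shared peaks (14.2 to 16.4%) and 15.1% in K20R-only peaks (12.1 to 18.7%). Sites gained in K20R, present in each K20R list and in neither WT list, numbered 0 of 93 in WT-only regions, which allows a share of up to 3.97% (Wilson), against 0.518% of all sites called in both K20R libraries. With lists of one length 10 sites were lost. Taking only the second WT library as the WT list gave 59 lost sites, and only the first gave 60. No share over the genome is given at these settings. Whether the lost share stayed above the genome's at them was therefore not tested.

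Losses fell at weak sites. Among the sites in WT-only regions with a mean WT percentile below 25, 19 of 27 were lost (70.4%, 51.5 to 84.1%), against 62.2% of all such sites. From 25 to 50, 18 of 43 were lost (41.9%, 28.4 to 56.7%), against 26.0% of all sites and 18.4% of those in shared peaks. At 50 or more, 0 of 78 were lost, against 0.950% of all sites. Only in the middle band did the interval of the WT-only regions lie above the genome's share. These intervals count sites within the same libraries and cover counting error only, so the spread between libraries is not in them. The bands were not repeated with lists of one length, where 10 sites were lost in all. Whether the middle band stood apart from the genome beyond that spread, or at that setting, was not tested.

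**Figure D5:**
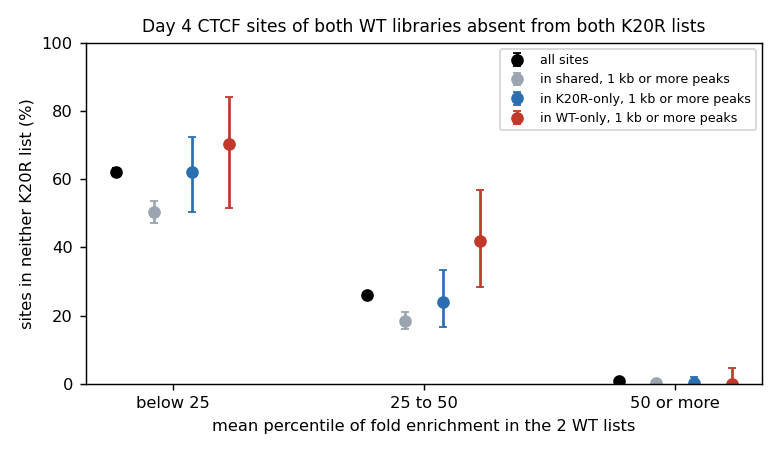
Points give the percentage of day 4 CTCF sites of both WT libraries that were in neither K20R list (vertical), by mean percentile of fold enrichment in the WT lists (horizontal), for all sites and for those in shared, K20R-only and WT-only peaks of 1 kb or more, with 95% Wilson intervals. In WT-only regions the share went from 70.4% below the percentile 25 to 0 at 50 or more.

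The lost sites with the highest WT percentiles lay in regions nearest to Gpbar1 (47.8), the gene of a bile acid receptor, Ptp4a2 (46.8), a phosphatase, Samd10 (45.2), Mtdh (44.5), Exoc6b (40.9), part of the exocyst, Smoc1 (40.7), a secreted matrix protein, S100a1 (39.8), Gtpbp2 (38.1), Stard13 (37.8), Nlrc4 (35.4), Mreg (33.7) and the deubiquitinase gene Usp34 (33.0). The Gpbar1 and S100a1 regions covered a start site and the Samd10 region lay 1249 bp from one. The Smoc1 region (chr12:81018361-81019919) was the strongest of these in H3K27ac, with a fold enrichment of 4.79, and lay 53202 bp from the nearest K20R peak. None was at a gene of the 8 lists. A motif match was found at 24 of the 37 lost sites (64.9%, 48.8 to 78.2%) and at 84 of the 93 kept sites (90.3%, 82.6 to 94.8%), beside 71.0% and 91.1% in samples of 3000 lost and 3000 kept sites of the genome. Of the 37 lost sites, 14 already had a peak in each WT list of the stem cells and 26 had none in either K20R list of the stem cells. The WT lists of the stem cells differed in length, with 77657 and 52698 peaks. No share over all lost sites of the genome is given beside these counts, so they do not set the WT-only regions apart.

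The kept sites in WT-only regions had lower ranks in K20R. The median percentile of fold enrichment over the 93 sites was 75.7 and 73.6 in the WT lists and 50.2 and 59.8 in the K20R lists, a difference of −19.7 (exact permutation p = 0.333), and 80 of the 93 sites (86.0%, 77.5 to 91.6%) had a lower mean percentile in K20R. Such percentiles depend on the weak peaks of each list: 74.4% of all 35992 kept sites and 76.3% of those in shared peaks were lower too, and the medians differed by −14.2 in shared and by −7.62 in K20R-only peaks. Ranked among the 35992 sites that all 4 lists share, the medians in WT-only regions were 60.8 and 57.3 in WT and 46.0 and 49.8 in K20R, a difference of −11.2 (exact permutation p = 0.333), with 61 of the 93 sites (65.6%, 55.5 to 74.5%) lower in K20R against 54.8% in shared peaks and 49.9% of all kept sites. On that scale the difference was −4.88 at the 2735 sites in shared peaks and 3.01 at the 330 sites in K20R-only peaks (exact permutation p = 0.333 each). With this ranking, added after the data were seen, the sign of the difference was opposite in WT-only and K20R-only peaks. The libraries of each genotype did not overlap in either. In K20R-only peaks, however, the closest libraries stood at 58.4 in WT and 58.9 in K20R. Ranked among all peaks of a list, the difference was negative in WT-only, shared and K20R-only peaks alike.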

How the data were processed

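ChIP-seq peak lists of 10 mouse libraries were used: 8 of CTCF (day 0 and day 4, WT and K20R, 2 biological replicates each) and 2 of H3K27ac (day 4). Per the study's methods, the authors used Trim_Galore and mapped to mm10 by bowtie2. Duplicates, poorly mapped reads and blacklisted regions were discarded. They brought CTCF libraries to an equal read number and called peaks by MACS2, in broad mode for H3K27ac. Equal read numbers were not stated for H3K27ac, nor which input served which library. The deposited lists give each peak's position, its fold enrichment (a ratio over local background), and −log10 p-value and q-value. They hold no read counts, so the depth behind a peak is unknown.

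Peaks overlapped if they shared at least 1 bp. CTCF sites were merged from the 4 day 4 lists, and a region's nearest gene was the protein-coding gene of GENCODE M21 with the nearest start site. The CTCF matrix, 19 bp wide, was built on the 1000 top peaks of the first day 4 WT list and scored within 100 bp of a summit, with a threshold passed by 5% of sequences shifted by 1 kb. Sequences came from the GRCm38.p6 reference. Libraries were compared by two-sided exact permutation tests, and shares carry 95% Wilson intervals, which cover counting error only. Python 3.11.15 with numpy 2.4.6, pandas 2.3.3, scipy 1.17.1 and pyfaidx 0.9.0.4 was used, and the interval, site and test functions were tested on simulated data.

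The members, gene lists, motifs and tests were chosen with earlier results of these data known. The regions named were the 10 widest, the 10 of highest fold enrichment, those within 3 kb of a listed gene, the 12 with the highest-ranked lost sites and those of genes nearest to at least 4 regions. Regions within 50 kb of a listed gene, and T, were added after their values were seen.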

Additional observations from a re-analysis of the deposited data

How the results depend on the processing

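The number of WT-only regions depended on the rule: it was 77 with WT peaks of −log10 q of 5 or more, 1005 with both lists held to that value, 4696 where a K20R peak had to cover at least 50% of a WT peak, 783 at a width of at least 1500 bp and 260 at 2 kb. The share in promoters was 5.29% within 1 kb and 19.4% with the start sites of all annotated genes, against 11.1%. Listed genes with a region numbered 21 within 50 kb and 2 with regions of −log10 q of 5 or more, against 8. Lost CTCF sites numbered 10 with CTCF lists of one length and 40 to 60 when each library was left out in turn, against 37. No genome share stands beside these counts. Leaving out each library gave differences of −3.31 to −2.62 points in the CTCF share, −0.52 to −0.28 in its log2 ratio to shared peaks and −24.5 to −14.9 in the rank of kept sites. All alternatives tried kept the direction of these 3 differences, and the share differed by −10.5 points with regions extended by 5 kb on each side. Replicate numbers were shared by the genotypes, but nothing in the labels said that they marked a common batch. With a replicate block the differences were −2.97, −0.40 and −19.7, each with an exact sign-flip p of 0.5, the smallest that 2 pairs allow. Comparisons with K20R-only peaks and with weak, narrow shared peaks, the ranking among sites of all 4 lists, and the count of 7 listed genes without a K20R peak within 1 kb of the region were added after seeing the data. The single H3K27ac library per genotype and the unknown depth per peak limit every statement on H3K27ac.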
